A study of Mus musculus with 24 samples.

Results

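Tuft cell genes are described here in sorted gut epithelium of colon and ileum. They were chosen by name, with earlier results of these data known. The set holds 9 symbols, namely Trpm5, Dclk1, Pou2f3, Il25, Alox5ap, Alox5, Ptgs1, Sh2d6 and Avil. Of these, 8 had an entry among the 24421 genes of the deposited table, and Sh2d6 was not analysed here. The low-value filter, at least 10 normalised reads in at least 2 of the libraries fitted, was passed by 7 of them. Il25 did not pass it and is given by its values alone.

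RNA was measured in 24 libraries from colon and ileum of the same 12 C57BL/6 mice aged 8 to 14 weeks, as epithelium sorted for a Villin-tomato reporter and absence of CD45. KO early mice were chimeras taken 2 weeks after chimerism (n = 4, mice 100, 117, 118 and 120), and KO late mice were chimeras at 8 weeks (n = 3, mice 49, 50 and 57). WT irradiated mice were likewise taken 8 weeks after chimerism (n = 2, mice 59 and 61), and WT non-irradiated mice served as the untreated group (n = 3, mice 72, 73 and 75). The sample labels say only KO, while gut macrophages without IL-10Rα, and an epithelial response driven by IL-22, are named in the series title. Both KO groups and the WT irradiated mice are thus labelled as chimeras, and after a marrow transfer blood cells carry the donor's genotype while gut epithelium stays that of the recipient. Villin drives the reporter in epithelium as a whole, tuft cells among it, so each library is a mixture of epithelial cell types. Replicates were separate mice by their numbers.

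Tuft cells are rare chemosensory cells of the gut epithelium that carry a brush of long microvilli. They sense parasites and microbial metabolites through a taste-type cascade that ends at the cation channel Trpm5, and they release the cytokine Il25, leukotrienes and prostaglandins. In the small intestine this starts a type 2 immune loop in which IL-13 from innate lymphoid cells drives more progenitors into the tuft and goblet lineages. Pou2f3 is the transcription factor the lineage depends on. Trpm5 is the channel, Il25 the secreted cytokine, and Dclk1 a kinase long used as a marker of these cells. Alox5, its partner Alox5ap and Ptgs1 (cyclooxygenase 1) start the leukotriene and prostaglandin pathways. Avil, an actin-bundling protein related to villin, belongs to the brush border. Sh2d6 is an SH2-domain protein known as a tuft cell marker.

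POU factors bind the octamer ATGCAAAT, and Trpm5 and Avil were the members with the closest course in ileum, so the bases upstream of their start sites are shown. They are the 250 bases before the annotated start, 5′ to 3′ on the strand of the gene, from RefSeq on build GRCm38.p6, at chr7:143094643-143094892 for Trpm5 (minus strand) and chr10:127000459-127000708 for Avil (plus strand). Capitals mark the core ATGCAAA or its reverse complement TTTGCAT.
Trpm5: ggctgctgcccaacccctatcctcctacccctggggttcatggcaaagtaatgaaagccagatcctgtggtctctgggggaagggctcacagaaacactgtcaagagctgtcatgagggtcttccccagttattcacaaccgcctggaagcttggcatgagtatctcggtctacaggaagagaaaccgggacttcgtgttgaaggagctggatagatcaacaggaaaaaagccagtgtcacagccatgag
Avil: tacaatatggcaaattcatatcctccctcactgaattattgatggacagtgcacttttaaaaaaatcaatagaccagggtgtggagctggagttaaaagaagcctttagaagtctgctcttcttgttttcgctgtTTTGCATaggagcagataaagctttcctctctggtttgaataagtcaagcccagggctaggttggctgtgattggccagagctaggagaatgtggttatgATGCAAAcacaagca
Avil held 2 matches to the core, at bases -115 (as TTTGCAT) and -15 from the start site, and Trpm5 held none. Of 32851 promoters of the same length searched on both strands, 4.12% held at least 1 core match and 0.247% held at least 2. The full octamer ATGCAAAT (reverse complement ATTTGCAT, which contains the core) stood in 1.60% of promoters and in none of the members matched. Promoters were at hand for 6 of the 9 members, with 2 for Dclk1, and those of Dclk1, Alox5, Ptgs1 and Sh2d6 held no core match. A match is a description of letters and not a measured site.

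Expression is given in normalised reads, the reads of a gene over the size factor of its library. Values are not scaled by gene length, so levels are compared between libraries and not between genes. Libraries held 8.32 to 18.7 M reads (median 13.2 M), of which the ribosomal transcript Rn45s took 0.064 to 29.4%. Reads on 1455 olfactory and vomeronasal receptor genes, a class with no known abundant expression in gut epithelium, were 701.1 to 996.8 per M in KO late colon, above the 208.1 and 549.2 of WT irradiated colon, and the other groups lay between 155.4 and 674.4. Epcam, the epithelial surface marker, had 12262.3 to 35668.2 normalised reads, and Ptprc, which encodes CD45, had 156.7 to 472.2 and was at 0 in no library.

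Every member that passed the filter was lower in colon than in ileum. By limma, over all 24 libraries and as the mean over the 4 groups, 7 of 7 were called lower at an adjusted p under 0.05, against 18.5% of the 19588 genes tested that were called lower. The median difference of the members was -1.23 on the log2(value + 1) scale, beside 0.04 over all genes tested. Markers of enteroendocrine cells lay on the same side, with 4 of 7 called lower, 1 called higher and a median of -1.25, while of 7 goblet cell markers 3 were called higher and 1 lower (median 0.20). Of 6 markers of epithelium in general, 5 lay below 0, 2 were called lower and 1 higher (median -0.41). Of all 19588 genes tested, 2937 were called higher in colon. The part of enteroendocrine, goblet or other epithelial cells in the members' values was not tested. That scale understates the change of low genes.

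Trpm5 showed the widest gap. It had 52.3 to 233.2 normalised reads in colon (median 144.0, 12 libraries) and 244.3 to 1237.0 in ileum (median 493.6), so the tissues did not overlap. The difference was -2.03 ± 0.22 (log2, SE, limma adjusted p = 7.19e-08), and the level was lower in colon in 12 of 12 mice. Neither the share of all genes without overlap between the tissues nor the share lower in every mouse was counted. Within a mouse the ileum level was 1.64 times the colon level in mouse 117, the smallest ratio, and 12.1 times in mouse 100, the largest. The 3 KO late mice had ratios of 10.2, 6.49 and 6.90, while the 5 WT mice had 2.38 to 4.24.

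Ptgs1 had 42.1 to 113.5 normalised reads in colon and 89.7 to 317.0 in ileum, a difference of -1.28 ± 0.19 (limma adjusted p = 9.15e-06), and Avil had 85.5 to 202.4 and 172.8 to 971.0, a difference of -1.24 ± 0.24 (limma adjusted p = 0.000272). Dclk1 ranged from 538.3 to 1839.1 in colon and from 1176.8 to 3057.0 in ileum, a difference of -0.87 ± 0.16 (limma adjusted p = 0.000186). Pou2f3 ranged from 94.3 to 206.5 in colon and from 160.5 to 372.4 in ileum, a difference of -0.72 ± 0.16 (limma adjusted p = 0.000803). For these 4 genes the tissues overlapped as sets of libraries, yet each was lower in the colon of every one of the 12 mice. How many of all genes were lower in every mouse was not counted. Scaled to reads per M without Rn45s, Avil and Trpm5 kept 12 mice and Dclk1, Pou2f3 and Ptgs1 had 11.

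The leukotriene pair was less even. Alox5ap, the protein that presents arachidonic acid to the lipoxygenase, had 15.6 to 53.8 in colon and 22.8 to 203.9 in ileum (-1.23 ± 0.25, limma adjusted p = 0.000488), and was lower in colon in 11 mice of 12. Alox5 itself had 82.9 to 140.6 in colon and 102.3 to 348.0 in ileum (-0.51 ± 0.14, limma adjusted p = 0.00836), lower in colon in 10 mice, or in 8 in reads per M without Rn45s. Alox5 was the member whose call rested on settings, with an adjusted p of 0.0766 after scaling to reads per M without Rn45s and 0.0966 without WT irradiated mouse 59. Il25 had 1.0 to 6.7 normalised reads in colon and 0.0 to 13.3 in ileum, from 0 to 11 reads per library, and was lower in colon in 7 of 12 mice.

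**Figure D1:**
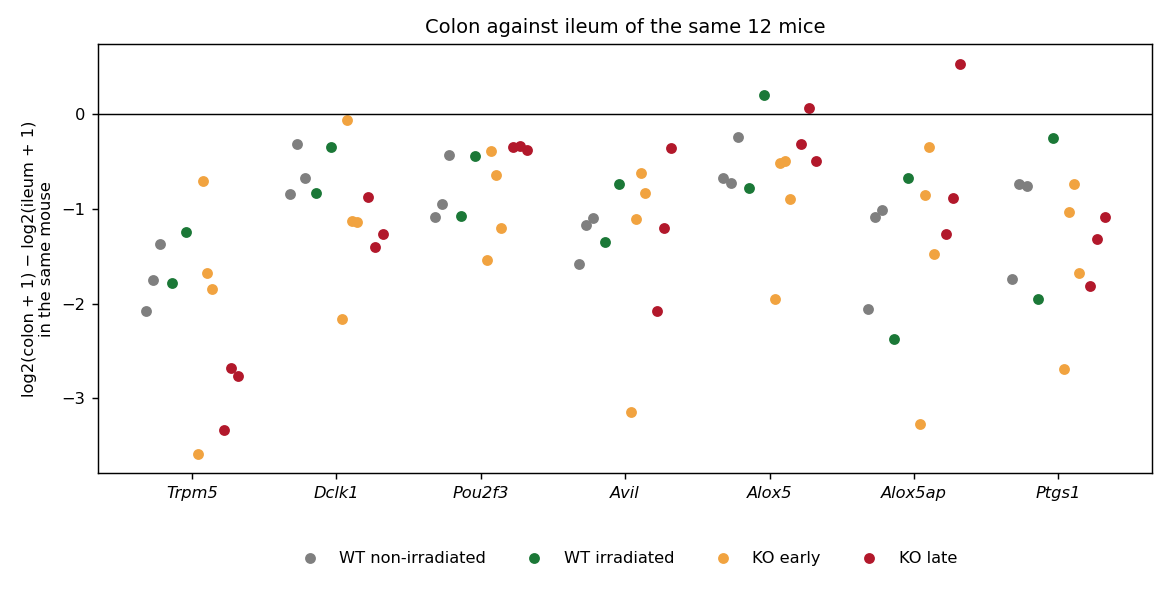
Difference in log2(value + 1) between colon and ileum of the same mouse (vertical axis) for 7 tuft cell genes, each point a mouse, coloured by group. Points lie below 0, the colon lower, in 12 of 12 mice for Trpm5, Dclk1, Pou2f3, Ptgs1 and Avil, in 11 for Alox5ap and in 10 for Alox5. The same count over all genes was not made.

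Other tuft cell genes, the name used here for 6 lists of 54 genes by role, lay mostly on the same side. The lists also hold genes of other cells, such as Il33, Ascl2 and Atoh1. Of these 54, limma called 28 lower and 6 higher in colon, beside 3619 lower and 2937 higher of all 19588 genes tested. Their median was -0.60. On the list named taste-type signalling 7 of 11 were lower and none higher. Plcg2, a phospholipase on that list, was among those lower (-1.83 ± 0.14, 270.3 against 985.8 normalised reads). In the type 2 circuit 3 of 5 were lower, among them Il33, an alarmin cytokine (-2.06 ± 0.23, 81.3 against 316.3). Among transcription factors 3 of 7 were lower (Gfi1b, Spib and Ascl2) and Atoh1, the factor of the secretory lineages, was higher. Among signalling and surface genes 12 of 19 were lower and Skap2 was higher. Of the 4 cytoskeletal genes, 2 were lower, namely Vil1 and Krt23.

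The lipid mediator enzymes divided. Hpgds, the haematopoietic prostaglandin D synthase, was higher in colon (1.90 ± 0.15, 328.4 against 81.6 normalised reads), as were Pla2g4a, the phospholipase that frees arachidonic acid (1.28 ± 0.12, 886.3 against 361.4), Ptges and Alox15. Lta4h, which makes leukotriene B4, was lower (-1.78 ± 0.12, 825.2 against 2843.5). The 3 differences given had limma adjusted p of 9.23e-09 or smaller. Several of these genes, such as Vil1, Hpgds, Pla2g4a and Lta4h, are expressed in other cells too. Fewer tuft cells and less RNA of a gene per tuft cell cannot be told apart in bulk libraries.

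**Figure D2:**
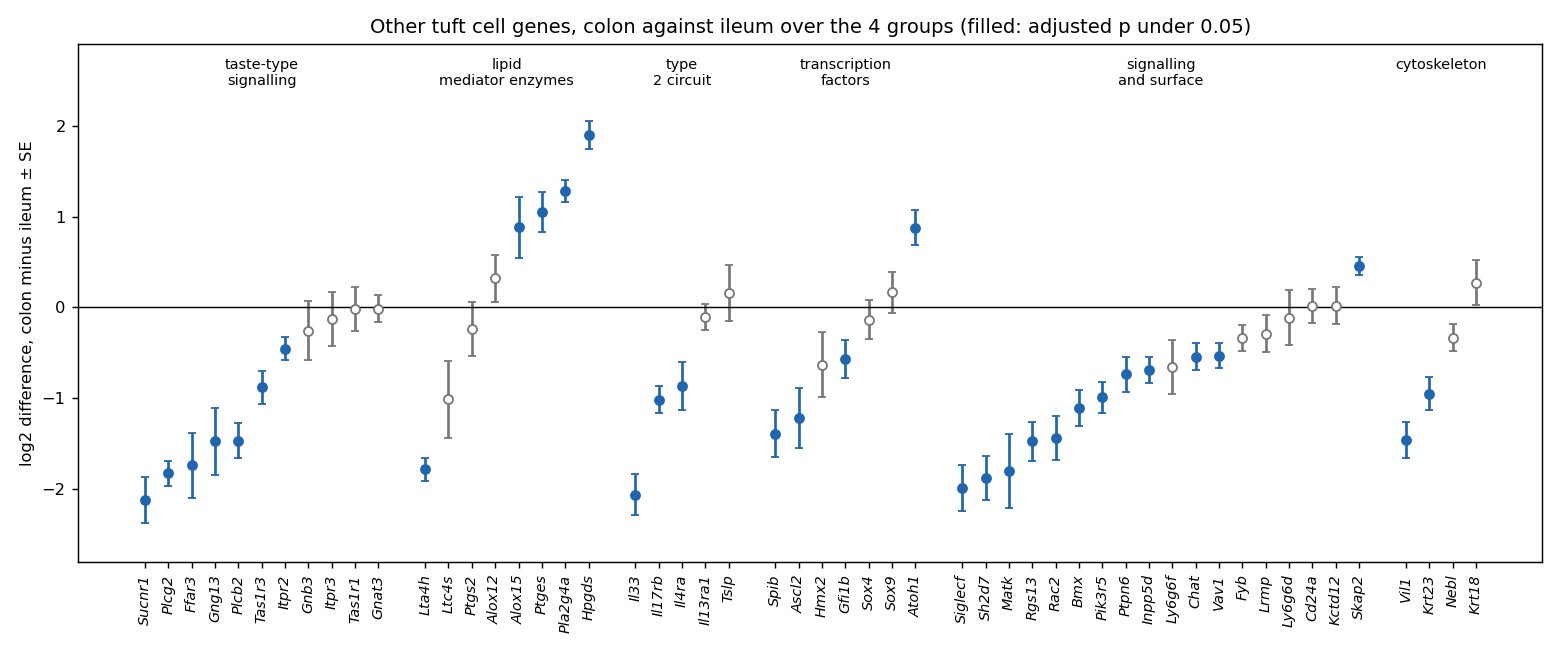
Difference of 53 of the 54 other tuft cell genes between colon and ileum (log2 scale, bars of 1 SE), grouped by role, with filled points for an adjusted p under 0.05. Of the genes drawn 27 were called lower and 6 higher in colon, and 4 of the 6 are lipid mediator enzymes. Over all 19588 genes tested, 3619 were called lower and 2937 higher.

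The order of group means, from the highest, was read for each member across the 8 groups. For Trpm5 the 4 ileum groups came first, WT non-irradiated (705.8 ± 192 normalised reads, SD), WT irradiated (574.8 ± 265), KO early (567.3 ± 460) and KO late (468.6 ± 146), and neighbours among them overlapped. The colon groups followed in the same order, at 206.4 ± 23.9, 192.1 ± 41.4, 119.8 ± 28.7 and 59.2 ± 5.99. WT non-irradiated and WT irradiated colon overlapped, and the lower neighbours in colon did not. Dclk1, Ptgs1 and Avil also had all 4 ileum groups above all 4 colon groups, and so did Pou2f3 and Alox5ap. In Alox5 the mean of KO late ileum (125.7 ± 11.6) lay beside that of WT non-irradiated colon (126.6 ± 15.2), and the 2 groups overlapped.

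**Figure D3:**
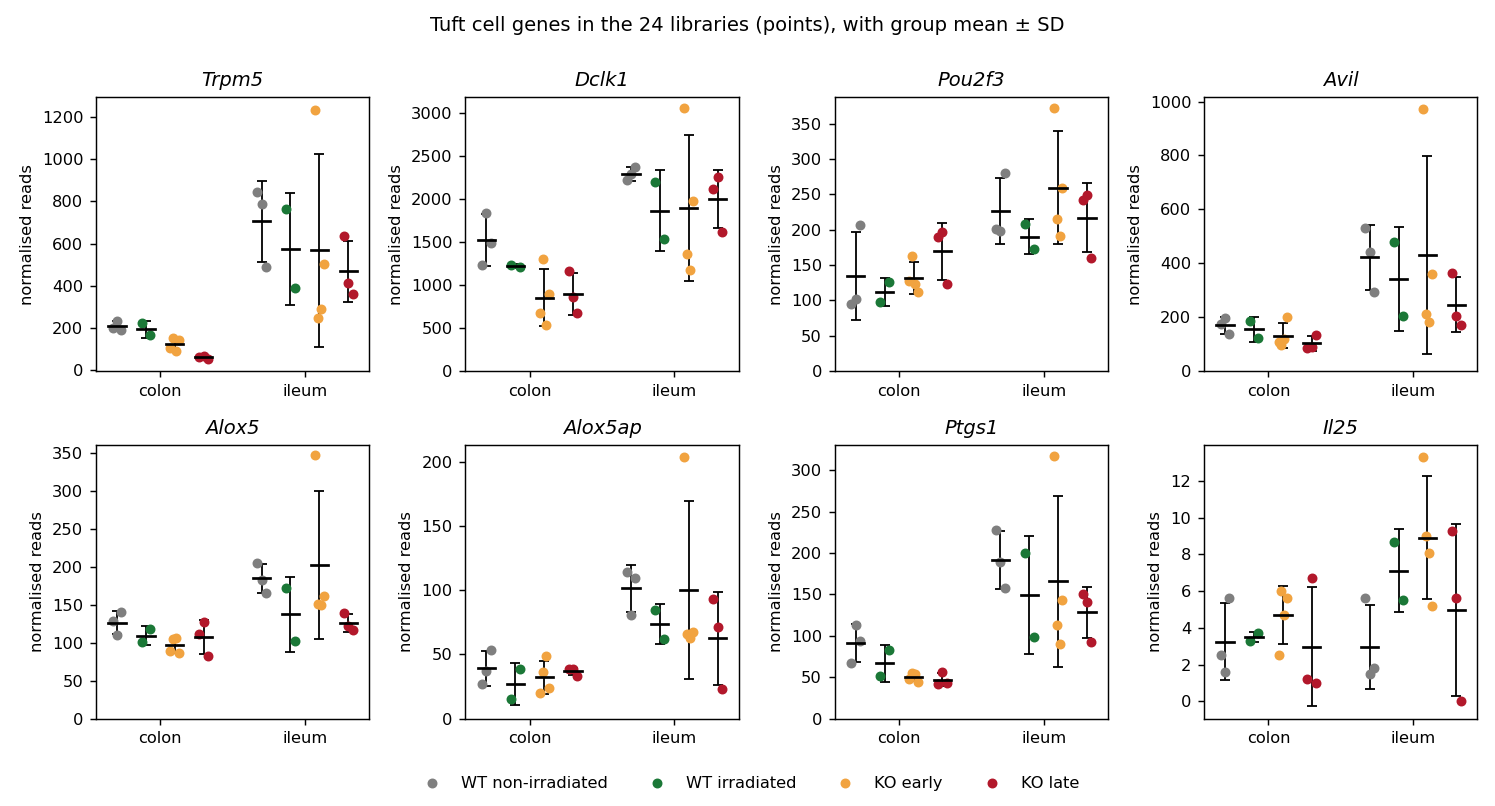
Normalised reads of each tuft cell gene per library in the 8 groups, with each point a mouse, the thick line the group mean and the bars 1 SD. The KO late colon libraries sit lowest of all colon groups for Trpm5, at 52.3 to 63.3, and the highest ileum point on this scaling is mouse 100 in each panel.

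In colon, KO late chimeras at 8 weeks were set against WT irradiated mice of matched time. Trpm5 was the only member called. It had 61.9, 63.3 and 52.3 normalised reads in the 3 KO late mice, against 221.4 and 162.8 in the WT irradiated mice and 198.8, 233.2 and 187.2 in the WT non-irradiated mice. All 3 KO late libraries were below every other colon library, the nearest being KO early mouse 118 at 89.3. The difference from WT irradiated was -1.67 ± 0.30 (log2, SE, limma adjusted p = 0.0165). In this comparison limma called 1.03% of 19145 genes, 0.387% lower and 0.642% higher, beside 1 of 7 members. With receptor reads, which were higher in each KO late colon library than in both WT irradiated ones, as a covariate the difference was -1.55 (adjusted p = 0.0638). Without KO late mouse 50 or 57, or WT irradiated mouse 59 or 61, the adjusted p was 0.0589, 0.0536, 0.310 and 0.0566, while the difference stayed between -1.89 and -1.45 in the fits that left out 1 mouse. Against both WT groups together it was -1.73 (adjusted p = 0.00140).

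Of 6 enteroendocrine markers tested in the same comparison, 5 lay below 0, 2 were called lower and 1 higher, with a median of -1.73, and their summed level was 981.1 to 1026.8 normalised reads in KO late and 1213.9 and 2553.0 in WT irradiated colon. All 7 goblet cell markers tested lay below 0, with a median of -0.79 and no call, and their sum was 64055.6 to 163026.7 against 148208.9 and 450584.9. The part of these cell types in the level of Trpm5 was not tested.

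The other members gave no call in KO late colon. Dclk1 had 1160.7, 856.1 and 674.6 normalised reads in KO late and 1238.7 and 1205.1 in WT irradiated (-0.48 ± 0.35, limma adjusted p = 0.424). The KO late libraries were all below the WT irradiated pair, by a small margin in mouse 49. Pou2f3 had 189.5, 196.5 and 123.3 against 97.9 and 126.4 (0.58 ± 0.36, limma adjusted p = 0.369), and the groups overlapped. Its difference lay above 0 and that of Trpm5 below, but under 8 other settings Pou2f3 ran from -0.18 to 0.62.

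Avil had 85.5, 88.3 and 135.1 normalised reads in KO late colon and 186.8 and 122.7 in WT irradiated colon (-0.58 ± 0.36, limma adjusted p = 0.361). Ptgs1 had 42.1, 55.8 and 43.4 against 51.0 and 82.5 (-0.47 ± 0.33, limma adjusted p = 0.419). Both sets of values overlapped between the groups. Alox5 had 111.5, 127.4 and 82.9 against 100.4 and 118.2 (-0.04 ± 0.28, limma adjusted p = 0.932), and Alox5ap had 38.4, 38.3 and 33.5 against 15.6 and 38.7 (0.55 ± 0.48, limma adjusted p = 0.489). Neither Alox5 nor Alox5ap separated the groups, and under 8 other settings Alox5ap ran from -0.36 to 0.56. Il25 had 1.2, 6.7 and 1.0 against 3.3 and 3.7. Of the 7 members tested, 5 lay below 0 with a median of -0.47, beside -0.01 over all genes, and 2 had all KO late libraries below both WT irradiated libraries, beside 18.5% of all genes.

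Of 50 other tuft cell genes tested in this comparison none was called by limma, and 3 had an unadjusted p under 0.05 on the higher side and 11 on the lower side. Over all genes these shares were 7.32% and 9.13%. Their median was -0.15. The smallest p belonged to Krt23, a keratin, at 402.5 against 109.4 normalised reads (1.77 ± 0.40, limma adjusted p = 0.0541), and to Sh2d7, an SH2-domain protein, at 35.2 against 105.0 (-1.61 ± 0.37, limma adjusted p = 0.0589). By role the medians were -1.08 for 6 transcription factors, -0.34 for 9 taste-type genes, -0.33 for 19 signalling and surface genes, -0.002 for 7 lipid enzymes, 0.13 for 4 cytoskeletal genes and 0.80 for 5 genes of the type 2 circuit.

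Alox5, Alox5ap and Ptgs1 are also expressed in myeloid cells and mast cells, so those markers were read beside them. The summed myeloid list (9 of 10 genes in the table) was 651.9 to 770.1 normalised reads in KO late colon, 575.2 to 1140.2 in KO early colon and 316.2 to 433.5 in WT irradiated colon. The neutrophil list (7 of 7) was 2941.9 to 9632.3 in KO late and 739.0 to 1346.4 in WT irradiated colon, where S100a8, which inflamed epithelium also expresses, had 1415.8 to 6615.3 against 0.8 to 28.3. Csf3r, a receptor of neutrophils, had 24.7 to 50.8 against 22.2 to 29.0. Most of the neutrophil list's sum in WT irradiated colon thus lay on its other genes, and its source was not tested. The mast cell list (9 of 9) was 295.9 to 579.8 in KO late and 675.1 to 804.9 in WT irradiated colon, but this sum rested on Kit, at 201.2 to 382.8 against 554.6 to 735.8. Of the 6 mast cell markers tested Kit alone lay below 0, their median was 0.80, and Cpa3, specific to mast cells, had 23.7 to 65.8 against 18.1 to 39.4. Of 8 leukocyte markers 0 lay below 0 (median 0.515). The medians were 0.78 for 8 stromal and endothelial markers, 1 below 0, and 0.55 for 6 of enteric neurons and glia, 2 below 0. These 3 lists held no call. S100a8, Csf3r, Kit and Cpa3 were at 0 in no library, and their part in the values of Alox5, Alox5ap and Ptgs1 was not tested.

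KO early colon was compared with the same 2 WT irradiated libraries, so the 2 KO comparisons share their controls. Those controls were taken at 8 weeks and KO early at 2 weeks, so genotype and time cannot be told apart here. Trpm5 had 102.0, 149.2, 89.3 and 138.9 normalised reads in KO early, all below WT irradiated (-0.69 ± 0.28, limma adjusted p = 0.666, unadjusted p = 0.0279). Limma called 0.204% of 19145 genes here and 0 of 7 members. Trpm5 was the 1 member with an unadjusted p under 0.05 on the lower side, beside 3.71% of all genes, and the 1 member whose groups did not overlap, beside 9.38% on the lower side. The other differences were -0.59 for Dclk1, -0.37 for Ptgs1, -0.26 for Avil, -0.18 for Alox5, 0.23 for Pou2f3 and 0.29 for Alox5ap. Among other tuft cell genes none of 50 was called, and the smallest p were those of Hpgds (-1.01 ± 0.32, limma adjusted p = 0.449) and Il4ra, a chain of the IL-4 and IL-13 receptors (1.62 ± 0.57, limma adjusted p = 0.536).

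Set against each other, KO late was below KO early colon for Trpm5 in every library (-0.98 ± 0.25, limma adjusted p = 0.300, unadjusted p = 0.00149). Limma called 0.00522% of genes in this comparison and 0 of 7 members. An unadjusted p under 0.05 on the lower side and groups without overlap were found for Trpm5 alone among the members, beside 7.58% and 6.47% of all genes. DESeq2 on recovered reads gave Trpm5 -1.01 with an adjusted p of 0.0138, with 210 genes called in all, and edgeR gave -1.08 with 0.344. The other 6 members lay between -0.33 (Avil) and 0.35 (Pou2f3). Of the other tuft cell genes, Krt23 (1.17 ± 0.33, limma adjusted p = 0.345) and Sox4 (-1.13 ± 0.37, limma adjusted p = 0.388) had the smallest p, and none of 50 was called.

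**Figure D4:**
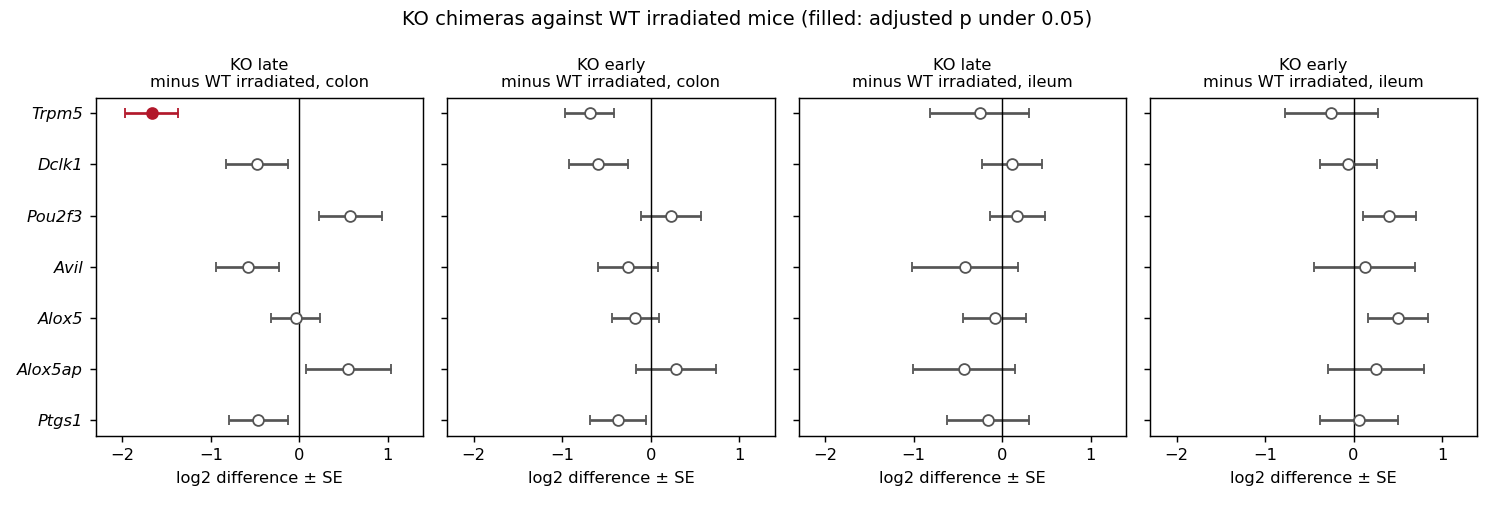
Differences (log2 scale, bars of 1 SE) of 7 tuft cell genes between the KO groups and WT irradiated mice in colon and ileum, with filled points for an adjusted p under 0.05. The single filled point of the 4 panels is Trpm5 in KO late colon at -1.67.

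In ileum no member was called in any comparison, and limma called 0% of 19122 genes in each of the 4. For KO late against WT irradiated ileum, 69 genes had an unadjusted p under 0.05 on the lower side and 88 on the higher side, none of them a member. Trpm5 had 634.1, 410.7 and 360.9 normalised reads in KO late ileum and 762.3 and 387.2 in WT irradiated ileum (-0.26 ± 0.55, limma adjusted p = 1). The groups overlapped, as they did for each member in this comparison. The 7 differences ran from -0.43 (Alox5ap) to 0.17 (Pou2f3), with a median of -0.16, and of 53 other tuft cell genes none was called. The smallest p among these were those of Krt23 (0.57 ± 0.36) and Ly6g6f (-0.96 ± 0.75), both with a limma adjusted p of 1.

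Trpm5 thus had a called difference in colon and none in ileum, and the difference between the tissues was tested as an interaction. It was -1.41 ± 0.66 (limma adjusted p = 0.903, unadjusted p = 0.0447), which did not pass. No member passed this test, and limma called 0.189% of 19588 genes in it. On the lower side 3.04% of all genes had an unadjusted p under 0.05, Trpm5 among them as the 1 member. The tissues of a mouse were not paired in this fit, and with mouse as a block the limma adjusted p of Trpm5 was 0.373. For KO early the interaction of Trpm5 was -0.44 ± 0.63 (limma adjusted p = 0.789), limma called 0.0408% of genes, and again 0 of 7 members. Among other tuft cell genes, with 0 of 54 called in either test, the smallest p were those of Hpgds (-1.11 ± 0.47) and Il13ra1 (0.99 ± 0.45) for KO late, and of Hpgds (-1.29 ± 0.44) and Itpr2 (-0.79 ± 0.37) for KO early.

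In KO early ileum 1 mouse stood above the other 3 on the deposited scaling. Trpm5 had 1237.0 normalised reads in mouse 100 and 244.3, 287.1 and 500.9 in mice 117, 118 and 120. Avil had 971.0 in mouse 100 and 212.6, 183.4 and 360.0 in the others, and Ptgs1 had 317.0 and 113.2, 89.7 and 143.0. Dclk1 had 3057.0 against 1359.3, 1176.8 and 1971.3, and Pou2f3 had 372.4 against 215.0, 191.4 and 258.8. Mouse 100 was the highest of the 12 ileum libraries for all 8 members in the table, Il25 at 13.3 included, while its colon library ranked from 5 to 11 of 12. That library also had the largest scale factor of all 24, with 2.22 normalised reads per read against at most 1.55 elsewhere. In reads per M without Rn45s, a setting added after the values were seen, it was the highest of 12 for 4 members, Trpm5 (67.7, next 67.3), Alox5ap (11.2, next 9.14), Alox5 (19.0, next 16.4) and Avil (53.1, next 42.2). Ptgs1 ranked 2, Il25 ranked 3, and Dclk1 and Pou2f3 ranked 5. The library had 11.7 M reads, of which 29.4% were Rn45s, and the lowest receptor reads of the group, at 264.6 per M against 481.5 to 674.4. The part of these in its values was not tested.

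With that library included, the differences of KO early from WT irradiated ileum ran from -0.25 (Trpm5) to 0.50 (Alox5, ± 0.34, limma adjusted p = 0.333). Over all genes 1746 had an unadjusted p under 0.05 on the lower and 3006 on the higher side, none of them a member. Of 53 other tuft cell genes none was called, with Atoh1 at -1.06 ± 0.33 and Ascl2, a stem cell factor, at -1.79 ± 0.63 (both with a limma adjusted p of 0.165). KO late minus KO early ileum ran from -0.69 (Alox5ap) to 0.17 (Dclk1), with 2128 and 2569 genes past an unadjusted p of 0.05 and again no member. Alox5 had 138.8, 121.6 and 116.8 in KO late ileum, all below the 150.1 of KO early mouse 118, the lowest there (-0.59 ± 0.30, limma adjusted p = 0.233). It was the only member whose groups did not overlap in that comparison, beside 9.29% of all genes on the lower side. With receptor reads as a covariate Alox5 (-0.89, adjusted p = 0.0229) and Avil (-1.14, adjusted p = 0.0205) passed, a setting that called 859 genes higher and 422 lower over the whole table. The smallest p among the other tuft cell genes were those of Atoh1 (1.30 ± 0.30, limma adjusted p = 0.0726) and Krt23 (1.06 ± 0.30, limma adjusted p = 0.0869).

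Irradiation with chimerism was compared with no treatment within the wild type. All 7 members were below 0 in WT irradiated against WT non-irradiated mice in colon, from -0.60 (Alox5ap) to -0.11 (Trpm5), and all 7 in ileum, from -0.47 (Alox5) to -0.24 (Pou2f3), though in reads per M without Rn45s Trpm5 (0.04) and Avil (0.01) lay above 0 in colon. In fits that left out 1 mouse, colon values reached 0.11 for Trpm5, 0.18 for Pou2f3, 0.03 for Alox5ap and 0.16 for Avil. Ileum values reached 0.15 for Trpm5, 0.07 for Ptgs1 and 0.23 for Avil. The other members stayed below 0 in these fits. No member was called, limma calling 0% of genes in either tissue. The medians of the members were -0.21 in colon and -0.38 in ileum, beside 0.008 and 0.02 over all genes. In colon 41 genes had an unadjusted p under 0.05 on the higher and 25 on the lower side, and in ileum 76 and 111, with no member among them. Dclk1 in ileum was the 1 member whose groups did not overlap, at 2197.5 and 1533.9 in WT irradiated and 2215.3 to 2375.2 in WT non-irradiated mice, beside 4.15% of all genes on the lower side. The 2 tissues came from the same mice and are not separate evidence. Of the other tuft cell genes, Kctd12 (-0.43 ± 0.27) and Il17rb, a receptor chain for IL-25 (-0.51 ± 0.33), had the smallest p in colon, and Skap2 (0.33 ± 0.19) and Hpgds (-0.51 ± 0.33) in ileum, none called.

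How the members moved together was described by Pearson's r over libraries, on log2(value + 1) after subtracting each group's mean. Over all 24 libraries the 21 pairs of members ran from 0.16 (Pou2f3 with Avil) to 0.87 (Trpm5 with Avil), with a median of 0.64. In the 12 ileum libraries the pairs ran from 0.65 to 0.98 (median 0.86), and in the 12 colon libraries from -0.77 to 0.81 (median 0.13), 8 of them below 0. Trpm5 and Avil, whose upstream bases are shown above, had 0.98 in ileum and 0.26 in colon. Trpm5 and Dclk1 had 0.88 and 0.81. Pou2f3 and Avil had 0.68 in ileum and -0.74 in colon.

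The gap between the tissues depended on the scaling. In reads per M without Rn45s, a setting added after the values were seen, the 21 pairs ran from 0.05 to 0.97 in ileum (median 0.64) and from -0.46 to 0.94 in colon (median 0.60), 5 of them below 0. Trpm5 and Avil then had 0.97 in ileum and 0.02 in colon, Trpm5 and Dclk1 had 0.60 and 0.94, and Pou2f3 and Avil had 0.11 and -0.33.

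The values share libraries, depth and the mouse 100 library. Without the 4 KO early ileum libraries the 21 pairs over the other 20 libraries ran from -0.33 to 0.72 (median 0.39), and in the 8 other ileum libraries from 0.11 to 0.99 (median 0.69). Receptor reads moved with the members too. In ileum their r with the members ran from -0.93 (Avil) to -0.47 (Il25), with Trpm5 at -0.91. In colon Trpm5 had -0.22 and Avil -0.61, while Pou2f3 had 0.88, Alox5ap 0.80 and Alox5 0.64. In reads per M without Rn45s Trpm5 had -0.88 in ileum and 0.46 in colon, Avil -0.91 and -0.10, and Pou2f3 0.12 and 0.90. Their part in the pattern was not tested.

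**Figure D5:**
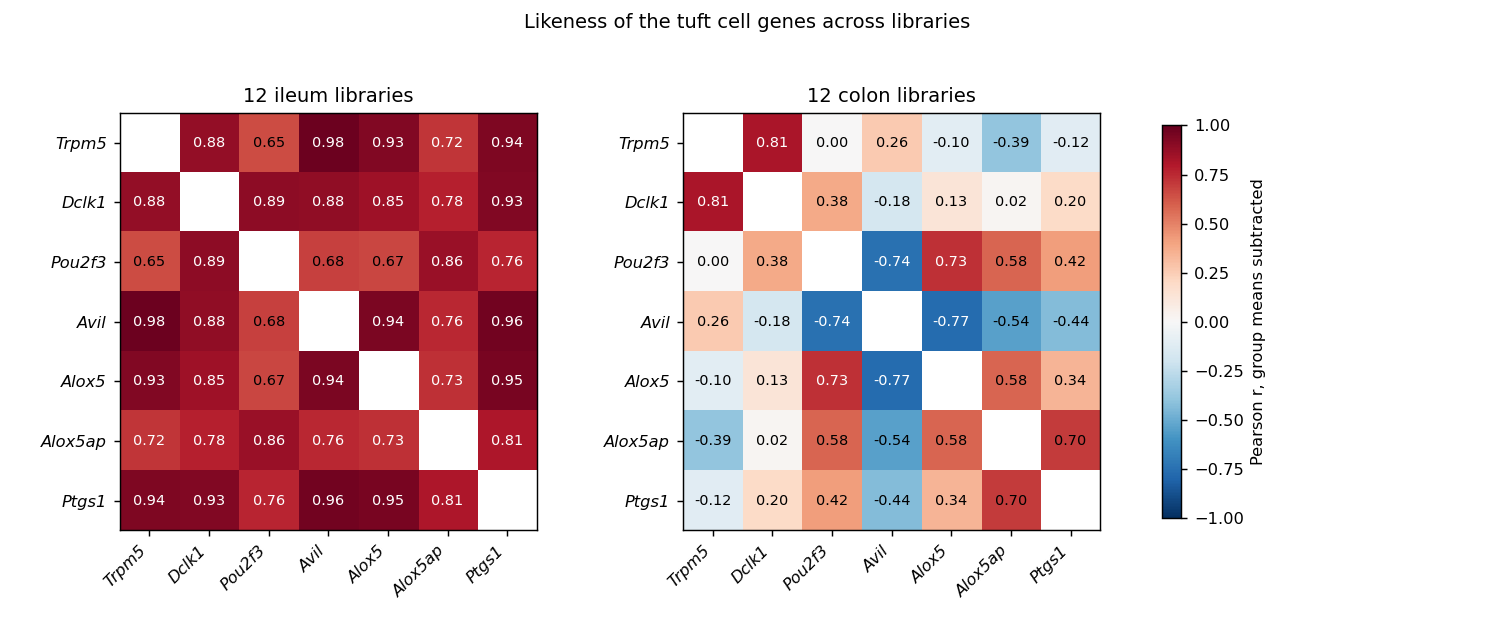
Pearson's r between pairs of tuft cell genes after subtracting group means, in the 12 ileum and the 12 colon libraries (colour and printed value). On the deposited scaling the 21 pairs lie between 0.65 and 0.98 in ileum and between -0.77 and 0.81 in colon.

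For each member the genes closest to it over the 24 libraries were taken from 13316 other genes averaging 50 normalised reads or more. These r are the highest of many, so high values follow from the choice. Among those closest to Trpm5 were Spib, an Ets factor (r = 0.94), and Siglecf, a sialic acid-binding lectin (0.91), and both stood on the lists of other tuft cell genes. Dclk1 was closest to Strip2 (0.90), Pik3cg, a phosphoinositide kinase (0.89), and Rgs13, a regulator of G-protein signalling on those lists (0.85). Avil was closest to the kinase Matk (0.94), Spib (0.90) and Sprr2a3 (0.90), and Ptgs1 to Siglecf (0.89), Cd300lf (0.87) and Vav1 (0.87). Alox5 was closest to Pik3r5 (0.92), Aqp7, an aquaporin (0.91), and Sec22c (0.90). Alox5ap was closest to Ogdhl (0.87), Inpp5d, an inositol phosphatase (0.83), and Tm4sf5 (0.79). Matk, Vav1, Pik3r5 and Inpp5d also stood on the lists of other tuft cell genes. Pou2f3 was closest to Dgki, a diacylglycerol kinase (0.92), Rgs22 (0.89) and the glucose transporter Slc2a2 (0.87), none of them on the lists.

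The pairs were picked in these same libraries, so other readings of them are not separate evidence. In reads per M without Rn45s the 20 pairs named here had r from 0.80 to 0.96 (median 0.87). Without KO early ileum Pou2f3 with Dgki had 0.95 over the other 20 libraries and 0.97 in colon alone, and Dclk1 with Strip2 had 0.85 and 0.86. Trpm5 with Spib had 0.85 over the 20 libraries and 0.60 in colon.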

How the data were processed

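RNA was measured in 24 libraries. Per the labels' protocols, total RNA went through a stranded kit with ribosomal depletion, which disagrees with the polyA molecule label. Per the submitters' processing notes, reads were processed with bcl2fastq, HISAT 0.1.6 and HOMER on mm9, and whether counting used strand is not stated there. The deposited table gives 1 coverage signal per gene and library, rounded to 1 decimal, as reads over a size factor. Low values (up to 20 reads) were whole multiples of 1 step within 0.1 reads for 100% of values in every library, and the scaling equalled median-of-ratios scaling within 0.9995 to 1.0001.

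The test set for counts was replaced by limma 3.58.1 (trend option, R 4.3.3) on log2(value + 1). Each tissue was fitted as 4 groups, and colon against ileum and the interactions over all 24 libraries, 11 comparisons in all. Benjamini-Hochberg adjustment ran over all genes tested, with calls under 0.05. Alternatives included edgeR 4.0.16 and DESeq2 1.42.0 on recovered reads. Colon and ileum with 1 mouse number came from the same animal. The main fits over all 24 libraries did not pair them, and mouse as a block was an alternative. Across genes, the 2 libraries of a mouse deviated from their group means with a correlation at -0.55 to 0.69 (median 0.28), above 0.1 in 5 of 10 mice, without the WT irradiated pair, where they mirror each other. The code was tested on simulated data. Members and lists were chosen with earlier results of these data known.

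All 9 members were to be named in every comparison, with the called other tuft cell genes (up to 6 by smallest p, otherwise the 2 smallest) and the 3 genes closest to each member, passing over predicted-only names. By that rule 1 further gene would be named, which is not reported here. Counts over the lists include it.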

Additional observations from a re-analysis of the deposited data

Results flagged for a closer look

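In KO early ileum the value of mouse 100 stood far from the other 3 mice for 2 of the 8 members. Alox5ap had 203.9 normalised reads there and 62.5 to 67.8 in the others, a gap to the nearest mouse of 0.963 of the group's range. Alox5 had 348.0 and 150.1 to 161.8, a gap of 0.941 of the range. In reads per M without Rn45s, added after the values were seen, the gaps were 0.877 for Alox5ap and 0.825 for Alox5, the latter under the limit, and this library had the largest scale factor of all 24. With 4 mice the limit for such a gap is 0.829, and chance alone passes it in about 1 in 20 groups. The 16 readings made were the 8 members in KO early colon and in KO early ileum, so they share libraries and are not separate chances. Avil (0.776), Ptgs1 (0.766) and Trpm5 (0.742) came near the limit in the same library without passing it, and Avil in KO early colon had 0.802.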

How the results depend on the processing

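Of 1064 values of members under alternatives, 1053 kept their side of the threshold, 11 crossed it and none reversed after a call, while 83 uncalled values changed sign. In KO late against WT irradiated colon the 1 called member became 0 with receptor reads as a covariate and 0 with only the compared groups fitted (Trpm5 adjusted p = 0.0501), and 0 to 1 when 1 mouse was left out. In KO late against KO early, DESeq2 gave 1 in colon instead of 0 (210 genes in the table against 1), and the covariate gave 2 in ileum instead of 0 (1281 genes against 0). In colon against ileum the count was 7, and 6 to 7 when 1 mouse was left out. Reads per M without Rn45s gave 6 there. It moved the median of all genes from 0.04 to 0.19, with the members moving up alike (Alox5 from -0.51 to -0.36), and turned the calls from 2937 higher and 3619 lower into 3482 and 2531. With mouse as a block, the replicate block that pairs the tissues, all 7 were called (Trpm5 adjusted p = 1.53e-08) and genes called went from 6556 to 8042. It changed no call on a member.

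Genes called in KO late against WT irradiated colon were 197, with 163 by edgeR, 805 by DESeq2, 328 with reads per M without Rn45s, 80 with the covariate, 788 against both WT groups, 253 with only the compared groups and 11 to 103 with 1 mouse left out. The split of 123 higher and 74 lower became 76 and 87 by edgeR, 342 and 463 by DESeq2 and 155 and 173 with reads per M without Rn45s. For KO early colon 39 became 235 by DESeq2, 100 with the covariate, 207 against both WT groups and 3 to 73 with 1 mouse left out. In ileum, DESeq2 called 207 genes for KO early against WT irradiated and 1376 for KO late against KO early, where limma called 0. Depth limits Il25 most, with at most 11 reads in a library, and Alox5ap next, with 19 to 143.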
